A study of Mus musculus with 4 samples.

Results

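Naive CD4 T cells were examined in single-cell RNA libraries of mouse liver. A cell was taken as a naive CD4 T cell when it had at least 300 detected genes, at most 10% mitochondrial counts, at least 1 unique molecular identifier (UMI) in *Cd3e*, *Cd3d* and *Cd3g* together, at least 1 in *Cd4*, at least 2 in *Lef1* and *Ccr7* together, at most 1 in *Trdc*, and none in *Cd8b1*, *Foxp3*, *Kdr*, *Clec4g* or *Cd79a*. This gate held 1222 of the 35682 cells kept by the first pair of limits, of which 469 of 17509 came from the tdTomato+ library and 753 of 18173 from the tdTomato- one. The gate was set on the same counts that are described here, so levels of its own genes are a description of the choice.

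Naive CD4 T cells are helper T cells that have left the thymus and not yet met their antigen. They recirculate between blood, lymph and lymphoid organs with the homing receptor encoded by *Ccr7* and the egress receptor encoded by *S1pr1*, they are kept alive by interleukin 7 and contact with self peptides, and their quiescence depends on transcription factors such as those encoded by *Tcf7*, *Lef1* and *Klf2*. The liver also holds memory, resident and innate-like T cells, some of which carry CD4.

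The cells came from livers of mice that carried *Stab2-CrexERT2* together with *R26-LSL-tdT*, labelled S2, at an age of 2 months. Tamoxifen was given at embryonic day 9.5 so that *Stab2*-expressing endothelium of that stage, in the yolk sac, and cells arising from it carry tdTomato. *Stab2* is also expressed by sinusoidal endothelium of the liver. CD45+ cells were sorted into a tdTomato+ and a tdTomato- (control) fraction, with 1 gene expression and 1 receptor library each (the description of the control library names only CD45+ liver cells), and the number of animals behind a library is not given in the sources used here. The tdTomato+ library was batch 1 and the tdTomato- library batch 2, so sort and batch cannot be told apart. With 1 library per group there was no test: each interval below is a 95% interval that covers counting error only, exact binomial for shares, exact Poisson for levels in UMI counts scaled to a common total (counts per 1e6 UMIs, CPM) and exact conditional binomial for ratios.

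Depth was similar in the 2 sets of gated cells. The tdTomato+ set had 4078373 UMIs in all and the tdTomato- set 7355533, with medians of 7177 and 7657 UMIs per cell. The libraries shared 84 barcodes, and 0 barcodes were gated in both. The gate acted unequally on the libraries: the requirement of no *Kdr* UMI, *Kdr* encoding a VEGF receptor of endothelium, took the tdTomato+ candidates from 2096 to 838 and the tdTomato- candidates from 1303 to 1288.

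The share of naive CD4 cells depended on what it was a share of. Among kept cells of the tdTomato+ library 2.68% (2.44 to 2.93) were gated, and among those of the tdTomato- library 4.14% (3.86 to 4.44). Of cells with a *Cd3* UMI they were 6.07% (5.55 to 6.62) and 4.71% (4.38 to 5.05), which is the opposite order. Of CD4 cells that met all other conditions, 68.1% (64.4 to 71.5) of 689 and 65.3% (62.4 to 68.0) of 1154 had at least 2 *Lef1* and *Ccr7* UMIs, and these intervals overlapped. Thinning to 2000 UMIs left out the 904 tdTomato+ and 2519 tdTomato- kept cells with fewer UMIs. After it the gate held 0.982% and 1.69% of the cells left. An endothelial UMI was found in 87.4% and 79.8% of gated cells, and 59 and 152 gated cells held none. With cells holding one left out of both counts the shares were 7.94% (6.10 to 10.1) and 1.69% (1.44 to 1.98). Without cells over 0.5% of other-lineage RNA they were 12.4% and 4.998%. The order of the libraries thus turned in both cases.

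The defining markers were present. *Tcf7* (ENSMUSG00000000782), which encodes TCF-1 and was not part of the gate, had 513 CPM (491 to 535) in gated cells of the tdTomato+ library and 542 CPM (525 to 559) in those of the tdTomato- library, against 3.45 and 4.40 CPM in B cells. A *Tcf7* UMI was found in 88.3% and 89.0% of gated cells, and in 3.39% and 3.50% of B cells, whose median was 6607 and 5867 UMIs. After thinning to 2000 UMIs these shares were 62.7% and 66.2% against 0.340% and 1.47%. In CD4 cells with no *Lef1* or *Ccr7* UMI, *Tcf7* stood at 138 and 160 CPM, so its presence alone does not mark a naive cell. *Cd3e*, a chain of the receptor complex and a gene of the gate, stood at 866 and 990 CPM in gated cells. *Trac*, the receptor α constant gene, stood at 200 and 202 CPM.

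The level of naive genes depended steeply on how many *Lef1* and *Ccr7* UMIs a CD4 cell had. *Igfbp4*, which encodes an insulin-like growth factor binding protein, stood at 7.74 CPM (tdTomato+) and 12.7 CPM (tdTomato-) in cells with exactly 2 such UMIs and at 373 and 404 CPM in cells with 10 or more; pairs of values below keep this order of libraries. *Tcf7* went from 186 and 228 CPM to 775 and 760 CPM between the same groups, and *S1pr1* from 40.01 and 63.7 CPM to 231 and 253 CPM. All 3 genes were thus low at the edge of the gate and high at its upper end in both libraries.

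**Figure D1:**
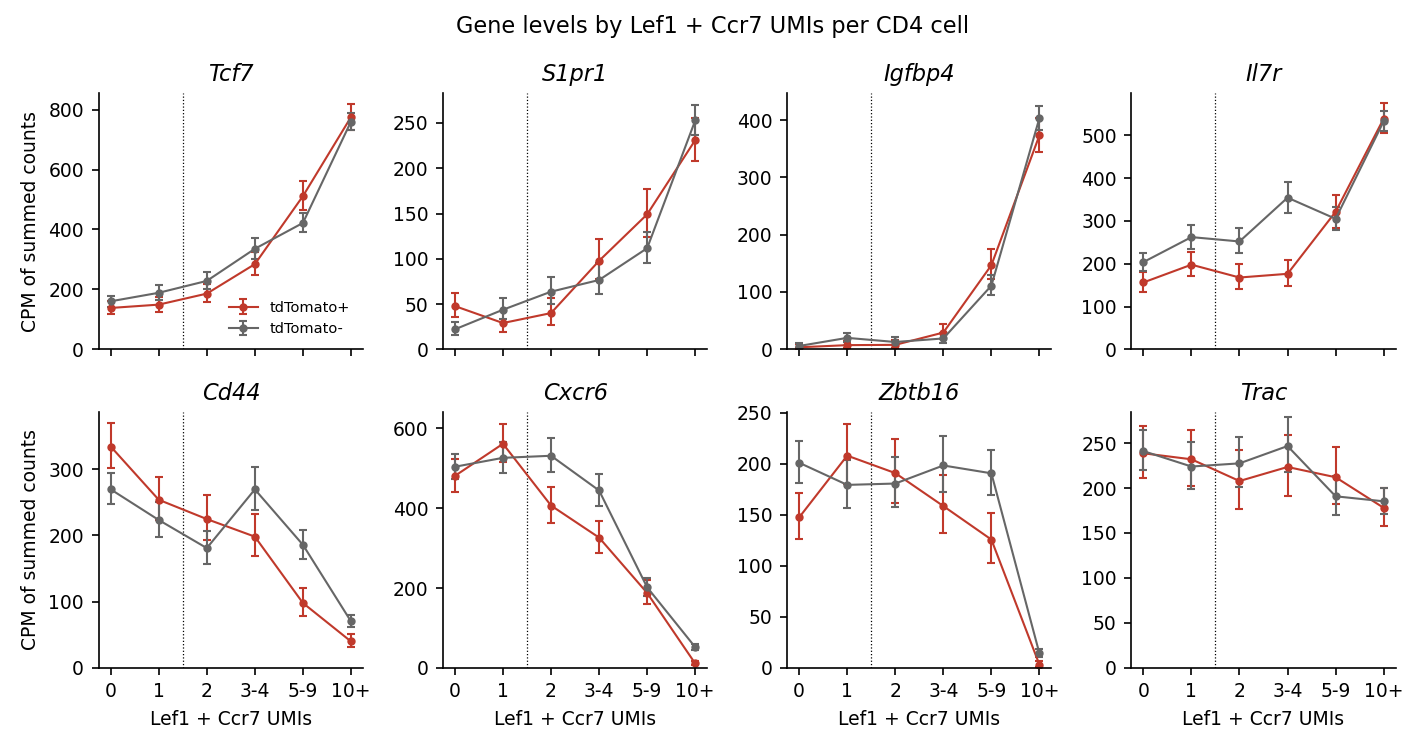
Level of 8 genes (y axis, CPM of summed counts) in CD4 cells grouped by their *Lef1* + *Ccr7* UMIs (x axis) in the tdTomato+ (red) and tdTomato- (grey) library. Points are levels with 95% Poisson intervals, and the dotted line is the edge of the gate. *Tcf7*, *S1pr1* and *Igfbp4* are highest at 10 or more UMIs, *Cxcr6*, *Zbtb16* and *Cd44* are lowest there, and *Trac* stays between 178 and 247 CPM.

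Genes of resident and innate-like T cells ran the other way. *Cxcr6*, a chemokine receptor of liver-resident lymphocytes, stood at 407 and 531 CPM in cells with 2 *Lef1* and *Ccr7* UMIs and at 10.9 and 51.8 CPM in cells with 10 or more. *Zbtb16*, which encodes the innate-like T cell factor PLZF, stood at 191 and 181 CPM at the edge and 3.02 and 14.1 CPM at the top. There were 64 tdTomato+ and 115 tdTomato- cells just inside the gate, with 2 UMIs, and 92 and 153 just outside it, with 1 UMI. In the latter *Cxcr6* stood at 561 and 526 CPM and *Zbtb16* at 208 and 179 CPM. The intervals for *Cxcr6* inside and outside did not overlap in the tdTomato+ library (363 to 454 against 515 to 611). In the tdTomato- library they overlapped (490 to 575 against 487 to 567), and those for *Zbtb16* overlapped in both libraries. Cells with 10 or more UMIs numbered 217 and 411.

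Clustering of the gated cells on their own gave 9 clusters, of which 3 had a median enrichment above 0 for the naive and quiescence list and below 0 for the memory and activation list. Cluster 1 (185 tdTomato+ and 246 tdTomato- cells) was led by *Igfbp4* and *Dapl1*, and the leading genes of cluster 4 (59 and 89 cells) included *St8sia6*, a sialyltransferase gene, and *Bach2*, a repressor that restrains effector genes, after *S100a9*, which had 84.5% of its counts in 1 cell. Cluster 5 (52 and 67 cells) was led by the interferon-response genes *Ifit3* and *Usp18*, with *Isg15* at 157 and 252 CPM against 28.5 and 23.4 CPM in cluster 1. Together these clusters, called naive-led here, held 296 tdTomato+ cells or 63.1% (58.6 to 67.5) and 402 tdTomato- cells or 53.4% (49.7 to 57.0) of the gate. The clusters were drawn from the same counts, so their leading genes describe how the cells were divided.

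**Figure D2:**
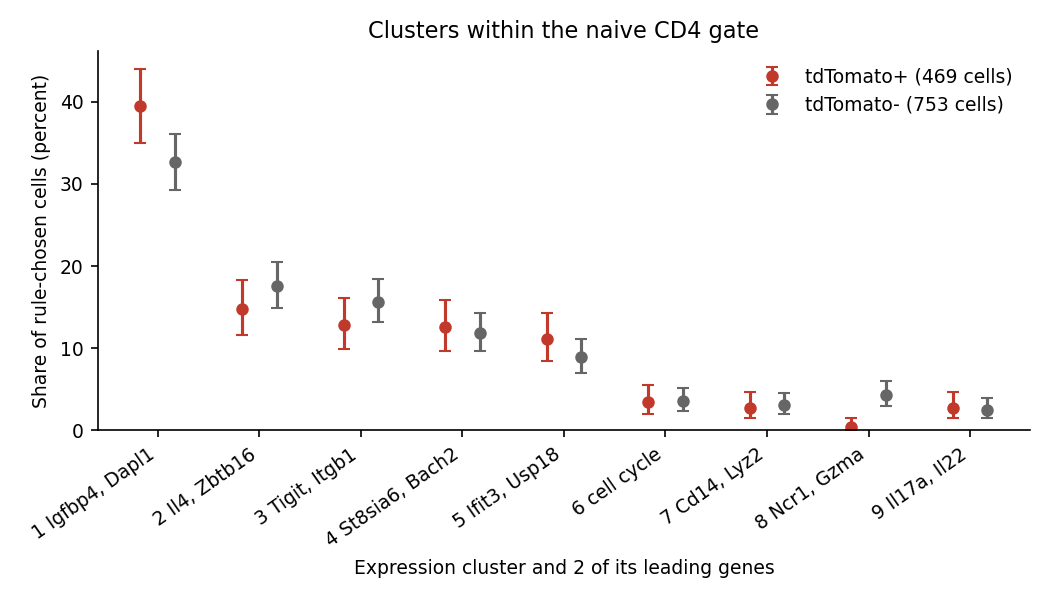
Share of gated cells (y axis, percent, with 95% binomial interval) in each of 9 expression clusters (x axis) for the tdTomato+ (red) and tdTomato- (grey) library. Cluster 1 is the largest, with 39.4% and 32.7%, followed by cluster 2 with 14.7% and 17.5%.

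The remaining 173 tdTomato+ and 351 tdTomato- cells lay in clusters with a median below 0 for the naive list, relative to the other gated cells, so the name naive CD4 is not borne out by the lists for the whole gate. That median was -0.05 in cluster 3 and -0.28 in cluster 8, against -1.39 in cluster 2. Cluster 2 (69 and 132 cells) was led by *Il4*, *Zfp683* and *Cxcr6* after hemoglobin genes whose counts lay almost wholly in 1 cell: *Zbtb16* stood at 359 and 315 CPM and *Il4*, the type 2 cytokine gene, at 307 and 278 CPM. Cluster 3 (60 and 118 cells) was led by *Tigit*, with *Ctla4*, an inhibitory receptor gene, at 566 and 633 CPM and the integrin gene *Itgb1* at 460 and 709 CPM, yet with *Tcf7* at 665 and 747 CPM and *Klf2* at 2759 and 3256 CPM, within the range of the naive-led clusters.

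Clusters 6, 7, 8 and 9 made up the rest. Cluster 9 (13 and 19 cells) held *Il17a*, the interleukin 17A gene, at 503 and 423 CPM. Over both libraries 25% of its cells had an *Il17a* UMI, and 39.9% of the counts lay in 1 cell. Cluster 6 (16 and 27 cells) was cycling, with *Mki67* at 1024 and 935 CPM. Cluster 7 (13 and 23 cells) held the myeloid gene *Lyz2* at 4052 and 11268 CPM. Cluster 8 (2 and 32 cells) held *Gzma* at 988 and 2192 CPM and *Ncr1*, an NK cell receptor gene, at 512 and 103 CPM. *Cd8a*, which the gate did not use, was among its leading genes, at 240 CPM against 2.72 CPM in other gated cells of both libraries. A *Cd8a* UMI was found in 55.9% of its cells and an *Ncr1* UMI in 35.3%. Nearly all of this cluster came from 1 library, and it may reflect that library.

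**Figure D3:**
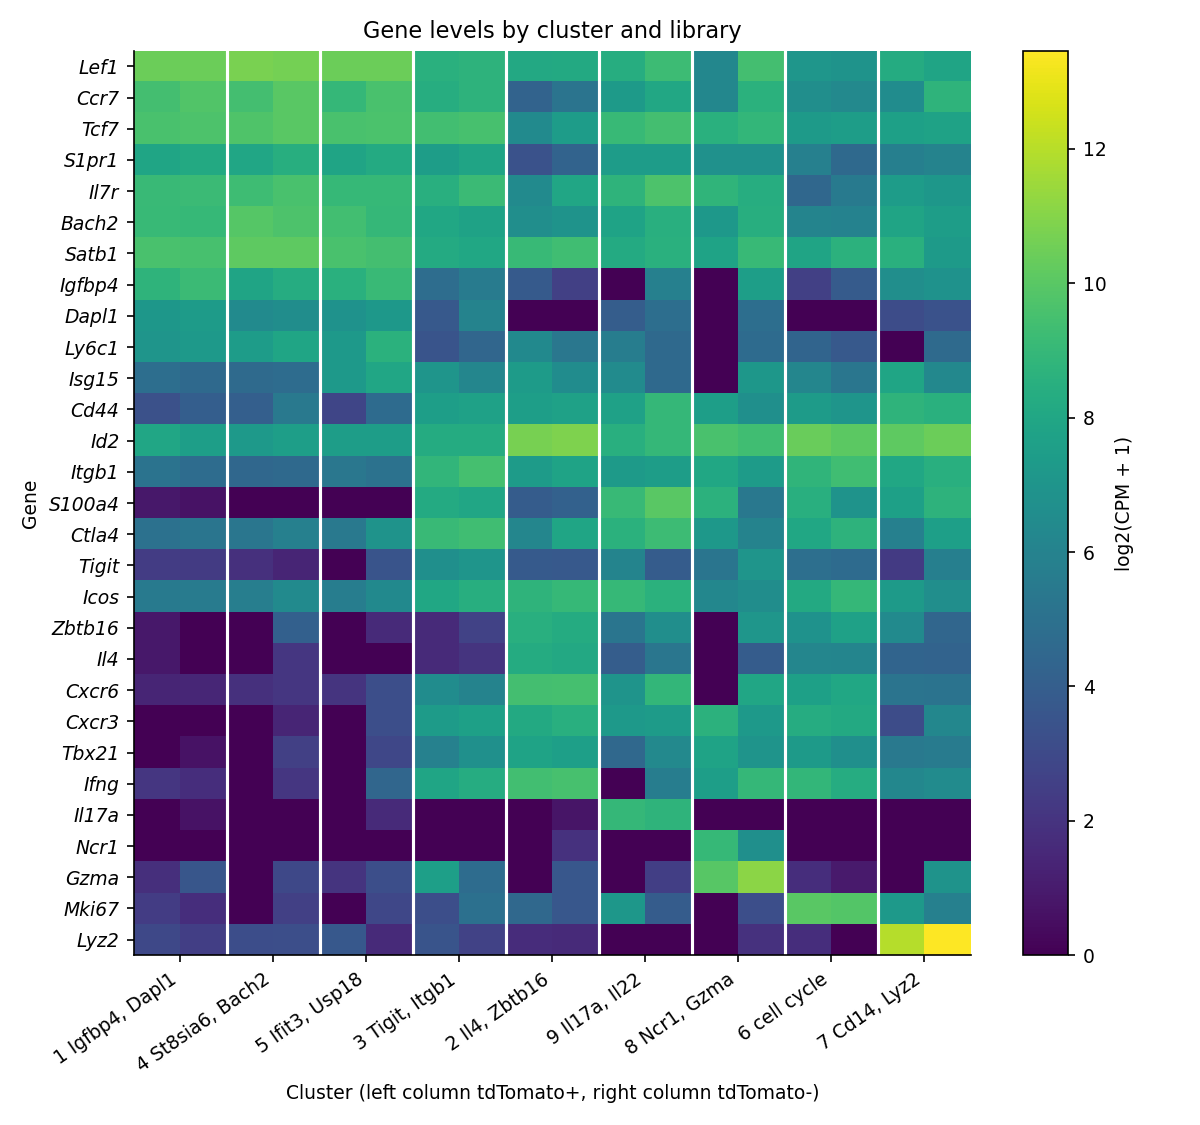
Level of 29 genes (rows, colour as log2(CPM + 1)) in each cluster of gated cells, with the tdTomato+ library in the left and the tdTomato- library in the right column of each pair. The naive-led clusters 1, 4 and 5 are bright for *Lef1* to *Dapl1* and darker than cluster 2 for *Cd44*, *Id2*, *Icos* and *Cxcr3* to *Ifng*, and cluster 2 is the reverse for *Zbtb16*, *Il4* and *Cxcr6*.

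Levels in the naive-led cells describe clusters that were called by the naive and memory lists, so high naive and low memory genes follow from that choice. *S1pr1* stood at 242 CPM (221 to 265) and 303 CPM (283 to 324), *Klf2* at 3167 and 3617 CPM, and *Il7r*, the interleukin 7 receptor gene, at 561 and 611 CPM. *Cd44*, an adhesion receptor gene of antigen-experienced T cells, stood at 10.0 and 22.8 CPM, *S100a4* at 0.527 and 0.357 CPM, and *Ifng*, the interferon γ gene, at 2.11 and 5.71 CPM. The T-bet gene *Tbx21* was at 0 and 2.5 CPM. Their median was 13 and 15 *Lef1* and *Ccr7* UMIs per cell against 3 and 4 in the other gated cells, and 29.0% and 27.8% of their UMIs were in ribosomal protein genes against 19.0% and 19.1%.

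Depth and other-lineage RNA differed between naive-led and other gated cells. The median was 6630.5 and 6902.5 UMIs in naive-led cells and 10045 and 9682 in the others. Cells with over 0.5% of their UMIs in endothelial, B cell, myeloid, neutrophil, hepatocyte and erythroid lists numbered 17 and 28, of which 3 and 1 were naive-led. The summed level of the 16 myeloid genes was 271 and 202 CPM in naive-led and 4471 and 3044 CPM in other gated cells, while that of the 23 endothelial genes was 417 and 287 CPM against 417 and 270 CPM. No doublet caller was run, and the part of such RNA in these results was not tested beyond the values without those cells.

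The gate was next set against the 128 tdTomato+ and 248 tdTomato- CD4 cells that met all conditions but had no *Lef1* or *Ccr7* UMI. Of genes with at least 50 CPM in 1 of the 2 classes, 69 of 3819 (1.81%) reached a 2-fold higher level and 195 (5.11%) a 2-fold lower one in gated cells of the tdTomato+ library, and in the tdTomato- library these were 76 of 3812 (1.99%) and 218 (5.72%). In both libraries 48 of 3575 (1.34%) were higher and 108 (3.02%) lower. The gate and this contrast share *Lef1* and *Ccr7*, so these counts are given without a reading. Scaling by median-of-ratios size factors moved the median log2 ratio of all genes from -0.16 and -0.12 to 0.04 in each library, and higher genes made up 47.7% and 36.2% of those past the fold in place of 26.1% and 25.9%.

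Genes of the naive and quiescence list were mostly higher in gated cells. Of its 27 members with enough counts, 17 were past the fold upward in tdTomato+ and 15 in tdTomato- cells. Among all genes tested these shares were 1.81% and 1.99%. The median log2 ratio of the list was 1.26 and 1.32, beside -0.16 and -0.12 over all genes. The gate was set on *Lef1* and *Ccr7*, so these values describe cells chosen by naive genes. *Igfbp4* stood at 190 CPM (177 to 204) against 3.47 CPM and 223 CPM (213 to 234) against 5.78 CPM, with log2 ratios of 5.60 (4.41 to 7.65) and 5.21 (4.43 to 6.28). *Dapl1*, which is expressed by resting lymphocytes, stood at 60.1 CPM against 0 in tdTomato+ cells, at least 23.1-fold higher by a limit of 3 counts over the class, and at 67.0 against 1.58 CPM in tdTomato- cells. In naive-led cells the levels were higher, with *Igfbp4* at 380 and 513 CPM and *Dapl1* at 124 and 146 CPM.

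Homing and survival genes were part of this group. *S1pr1* stood at 152 against 47.7 CPM and 167 against 22.1 CPM, with log2 ratios of 1.66 and 2.90. *Tcf7* was higher by 1.89 (1.66 to 2.14) and 1.76 (1.59 to 1.93) on the log2 scale, *Bach2* by 1.51 and 1.66, *Il7r* by 1.17 and 1.02, and *Itga6*, the laminin receptor α6 integrin gene, by 2.26 and 1.93. *Klf2* was past the fold in the tdTomato+ library alone, with a log2 ratio of 1.42 against 0.76. *Satb1*, a chromatin organizer gene, lay at the fold or under it, with 1.00 and 0.79, and the gene encoding the ADP-ribosyltransferase ART2.2, *Art2b*, stood at 76.7 against 155 CPM and 75.3 against 149 CPM, opposite to the rest of the list.

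**Figure D4:**
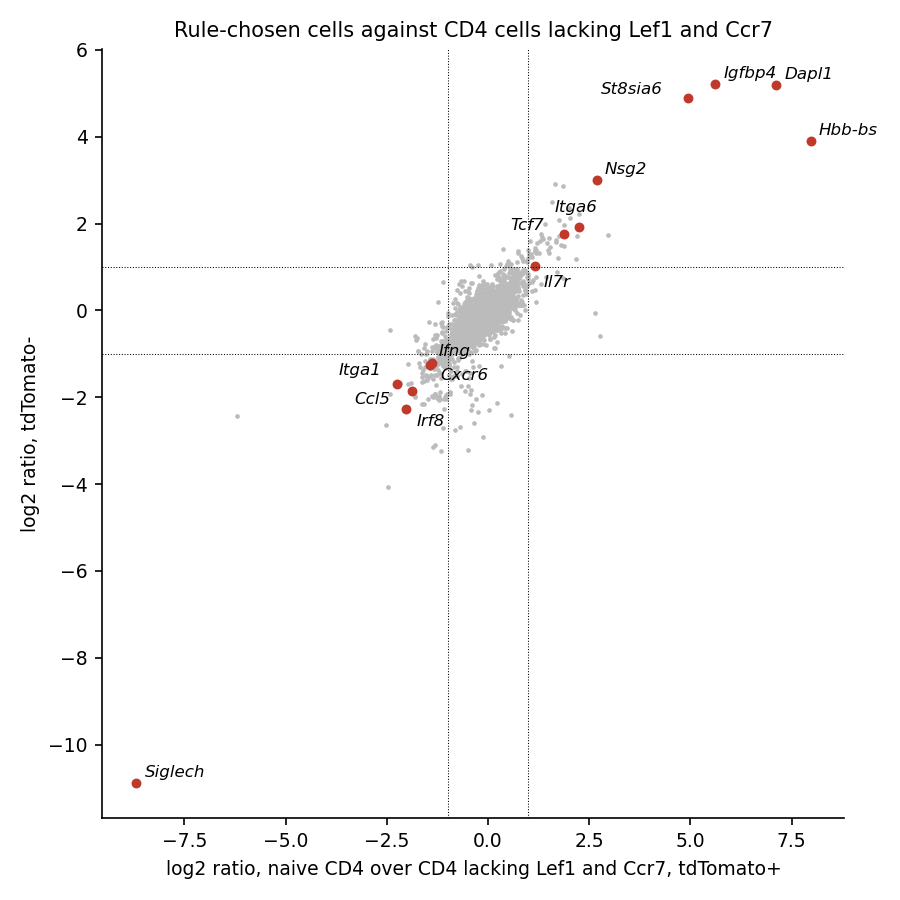
Log2 ratio of gated over *Lef1*- and *Ccr7*-lacking CD4 cells in the tdTomato+ (x axis) and tdTomato- (y axis) library for each gene with at least 50 CPM in 1 class in both; dotted lines mark a ratio of 2 either way. *Igfbp4*, *Dapl1* and *St8sia6* lie at the upper right and *Siglech* at the lower left, while *Hbb-bs* at the far right comes almost wholly from 1 cell.

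Genes of the type 1 helper list were lower in gated cells. Of its members, 9 of 12 were past the fold downward in each library and 0 upward, beside 5.11% and 5.72% of all genes downward: *Ifng* stood at 225 against 608 CPM and 267 against 635 CPM, *Tbx21* at 75.0 against 156 CPM and 79.8 against 201 CPM, and *Ccl5*, a chemokine gene, at 267 against 973 CPM and 743 against 2694 CPM. Of the residency list, 4 of 7 and 5 of 7 were lower, among them *Cxcr6* by -1.39 and -1.22 on the log2 scale, *Itga1* by -2.26 and -1.69 and *Xcl1* by -1.36 and -2.0. The memory and activation list split between libraries, with 12 of 20 lower in tdTomato+ and 2 of 20 in tdTomato- cells. Its *Cd44* had a log2 ratio of -1.51 and -0.93 and *S100a4* of -1.79 and -0.68, and whether the libraries differed was not tested. Markers of other lymphocytes moved the same way: the summed level of 10 NK genes was 374 against 756 CPM and 513 against 1686 CPM, and that of 11 γδ T cell genes 143 against 411 CPM and 243 against 489 CPM. For 8 invariant NKT cell genes it was 521 against 1089 CPM and 508 against 1165 CPM. Within the gate these 8 genes summed to 16.9 and 24.3 CPM in naive-led and 960 and 806 CPM in other cells. The part of such markers in the counts of the lists above was not tested.

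Of the T cell receptor signalling and immediate early lists, 0 of 18 members each were past the fold in either library, which is near the share of all genes tested (1.81% and 1.99% higher, 5.11% and 5.72% lower). *Cd5*, a receptor whose level follows self-reactivity, stood at 326 against 294 CPM and 350 against 279 CPM. *Fos* stood at 2549 against 1541 CPM and 2437 against 2546 CPM.

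Part of the lower group were genes of other cell types. *Siglech*, a receptor gene of plasmacytoid dendritic cells, was at 0 in gated cells of both libraries and at 50.3 and 128 CPM in the lacking class, at least 68.4-fold and 314-fold lower by a limit of 3 counts over the class. *Tcf4*, which encodes a factor of the same cells, had a log2 ratio of -2.47 and -4.07, the second of which became 0.26 without cells over the limit of other-lineage RNA. Over the limit of other-lineage RNA were 10 (7.81%) and 60 (24.2%) of the lacking cells against 3.62% and 3.72% of gated cells. Without all such cells, 80 of 3708 genes were past the fold upward and 168 downward in the tdTomato+ library. In the other these were 84 and 153 of 3697.

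The gate was also set against CD8 cells chosen by the same conditions with a *Cd8b1* UMI and no *Cd4* UMI, 552 of them tdTomato+ and 1167 tdTomato-. Of 3431 genes, 102 (2.97%) were past the fold upward and 47 (1.37%) downward in the tdTomato+ library, and of 3427 genes 74 (2.16%) and 44 (1.28%) in the tdTomato- library. In both libraries 50 of 3273 genes (1.53%) were at least 2-fold higher and 34 (1.04%) at least 2-fold lower in gated CD4 cells. *Cd40lg*, the helper ligand gene, stood at 177 CPM (164 to 190) against 1.57 CPM and 196 CPM (186 to 206) against 5.15 CPM, a log2 ratio of 6.75 (5.93 to 7.88) and 5.24 (4.90 to 5.62). *St8sia6* stood at 93.7 against 1.41 CPM and 86.1 against 3.31 CPM, and *Ly6c1*, a surface antigen gene, at 88.5 against 1.10 CPM and 98.0 against 2.5 CPM. In naive-led cells *Cd40lg* stood slightly lower, at 169 and 191 CPM, and the others higher, at 180 and 185 CPM for *St8sia6* and 143 and 215 CPM for *Ly6c1*.

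The lineage factor genes named here were chosen after their values were seen. *Zbtb7b*, which encodes the CD4 lineage factor ThPOK, had 27.0 against 2.35 CPM and 29.6 against 2.65 CPM and so lay under the level limit. *Runx1* stood at 385 against 136 CPM and 387 against 145 CPM. *Eomes*, which encodes a factor of cytotoxic cells, stood at 4.90 against 77.0 CPM and 5.03 against 84.2 CPM. *Cd8a*, whose product pairs with that of *Cd8b1*, a gene of the class rule, stood at 1.23 against 351 CPM and 16.0 against 366 CPM.

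Several genes of this contrast were not past the fold upward in naive-led cells. *Zbtb16* had a log2 ratio of 4.17 and 4.54 over CD8 cells in the whole gate and -2.73 and -0.14 in naive-led cells. *Il4* had a log2 ratio of 7.57 and 5.51 in the whole gate, while its level in naive-led cells was 0.527 and 0.714 CPM against 0.314 and 1.47 CPM in CD8 cells. *Icos*, a costimulatory receptor gene, had a log2 ratio of 1.95 and 1.88 in the whole gate and of -0.15 and -0.21 in naive-led cells. In naive-led cells 52 of 3197 genes (1.63%) were higher and 147 (4.6%) lower than in CD8 cells in both libraries. The CD8 class held effector genes too, with *Nkg7* at 862 and 951 CPM and *Gzmk* at 83.1 and 80.3 CPM, and it was not divided by clusters.

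The gated cells were then compared between libraries. Of 3446 genes, 22 (0.638%) were at least 2-fold higher and 17 (0.493%) at least 2-fold lower in the tdTomato+ library. The 4 hemoglobin genes at the head of the higher group came almost wholly from 1 cell: *Hbb-bs* had 12009 counts, 99.7% of them in 1 cell. Genes of Kupffer cells, the liver's macrophages, followed, with *Clec4f* at 266 against 37.4 CPM (log2 ratio 2.83), *Cd5l* at 191 against 24.1 CPM (2.98) and *Vsig4* at 99.1 against 19.7 CPM (2.33). Without cells over the limit of other-lineage RNA, 0 of 3398 genes were higher and 11 lower. The limit is set on lists that hold hemoglobin genes and *Vsig4*, so a fall of these genes follows from the choice of cells.

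The 17 lower genes were of several kinds, among them granzyme and chemokine genes, the myeloid gene *Lyz2* (log2 ratio -1.65), the histone genes *H1f3*, *H4c4* and *H2ac8*, and the cell cycle gene *Ube2c*. *Gzma* and *Gzmb*, the granzyme genes, stood at 30.6 against 126 CPM and 44.9 against 173 CPM, and 1 tdTomato+ cell held 72.8% of the *Gzma* counts there. *Ccl5* stood at 267 CPM (251 to 283) against 743 CPM (724 to 763), a log2 ratio of -1.48 (-1.57 to -1.39). With cells holding a *Trdc* or *Cd8a* UMI left out, the log2 ratios were 0.17 for *Gzma*, -0.10 for *Gzmb* and -0.40 for *Ccl5*. Cluster 8, with 2 tdTomato+ and 32 tdTomato- cells, held *Gzma* at 2107, *Gzmb* at 2375 and *Ccl5* at 7928 CPM over both libraries. *Tpm3-rs7*, a tropomyosin-related sequence, stood at 13.0 against 73.7 CPM (log2 ratio -2.49, -2.94 to -2.09) and *Cwc22*, a splicing factor gene, at 120 against 254 CPM (-1.08, -1.22 to -0.93), with at most 5.66% of the counts of either in 1 cell. *Gpr171*, a G protein-coupled receptor gene, had a log2 ratio of -1.10 and a UMI in 18.8% against 32.7% of cells. *Tpm3-rs7* and *Cwc22* have near-identical copies elsewhere in the genome, so their counts are uncertain.

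Naive-led cells of the libraries differed in few genes. Of 3155 genes, 5 (0.158%) were past the fold upward and 1 (0.0317%) downward in tdTomato+ cells, and no member of the lists was past the fold. The named ones, chosen here after their values were seen, were *Rps6ka5* at 54.2 against 26.1 CPM and *Plk3* at 56.3 against 27.8 CPM on the higher side, both kinase genes, and *Plcb2*, a phospholipase gene, at 24.2 against 53.2 CPM on the lower. *Tcf7* had a log2 ratio of -0.13 (-0.22 to -0.03), *Ccr7*, a gene of the gate, of -0.46 (-0.56 to -0.36) and *Igfbp4* of -0.43 (-0.56 to -0.30), each with an interval that excluded 0 and a size under 2-fold. These intervals hold no spread between animals.

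Receptor V segments, which neither the gate nor the clustering used, differed between the clusters. A cell was assigned to the *Trbv* segment with the most UMIs, at least 2 and with no tie, and 88.2% and 91.0% of naive-led cells could be assigned. They used an effective number of 11.4 and 8.86 *Trbv* segments (the inverse of the chance that a pair of cells shares one), against 4.26 and 4.90 in cluster 2. *Trbv12-2* was the segment of 35.5% (23.7 to 48.7) and 33.3% (25.3 to 42.2) of assigned cluster 2 cells and of 6.90% (4.14 to 10.7) and 6.28% (4.02 to 9.28) of naive-led cells. *Trbv* segments form a family with similar neighbours, and reads of *Trbv12-2* and the adjacent *Trbv13-2* may be split or exchanged.

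Cluster 2 drew on few further segments. *Trbv1* was found in 27.4% (16.9 to 40.2) and 10.9% (6.06 to 17.5) of its assigned cells, *Trbv13-1* in 12.9% and 21.7%, and *Trbv29* in 11.3% (4.66 to 21.9) and 15.5% (9.73 to 22.9). *Trbv5*, used by 10.7% and 13.1% of naive-led cells, was found in 0 of 62 and 1 of 129 cluster 2 cells, where 0 of 62 allows a share of up to 4.84%. A *Trav* segment could be assigned in 27.5% and 41.7% of cluster 2 cells against 61.1% and 72.9% of naive-led cells. CD4 cells lacking *Lef1* and *Ccr7* lay between, with *Trbv12-2* in 19.8% and 27.7%.

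**Figure D5:**
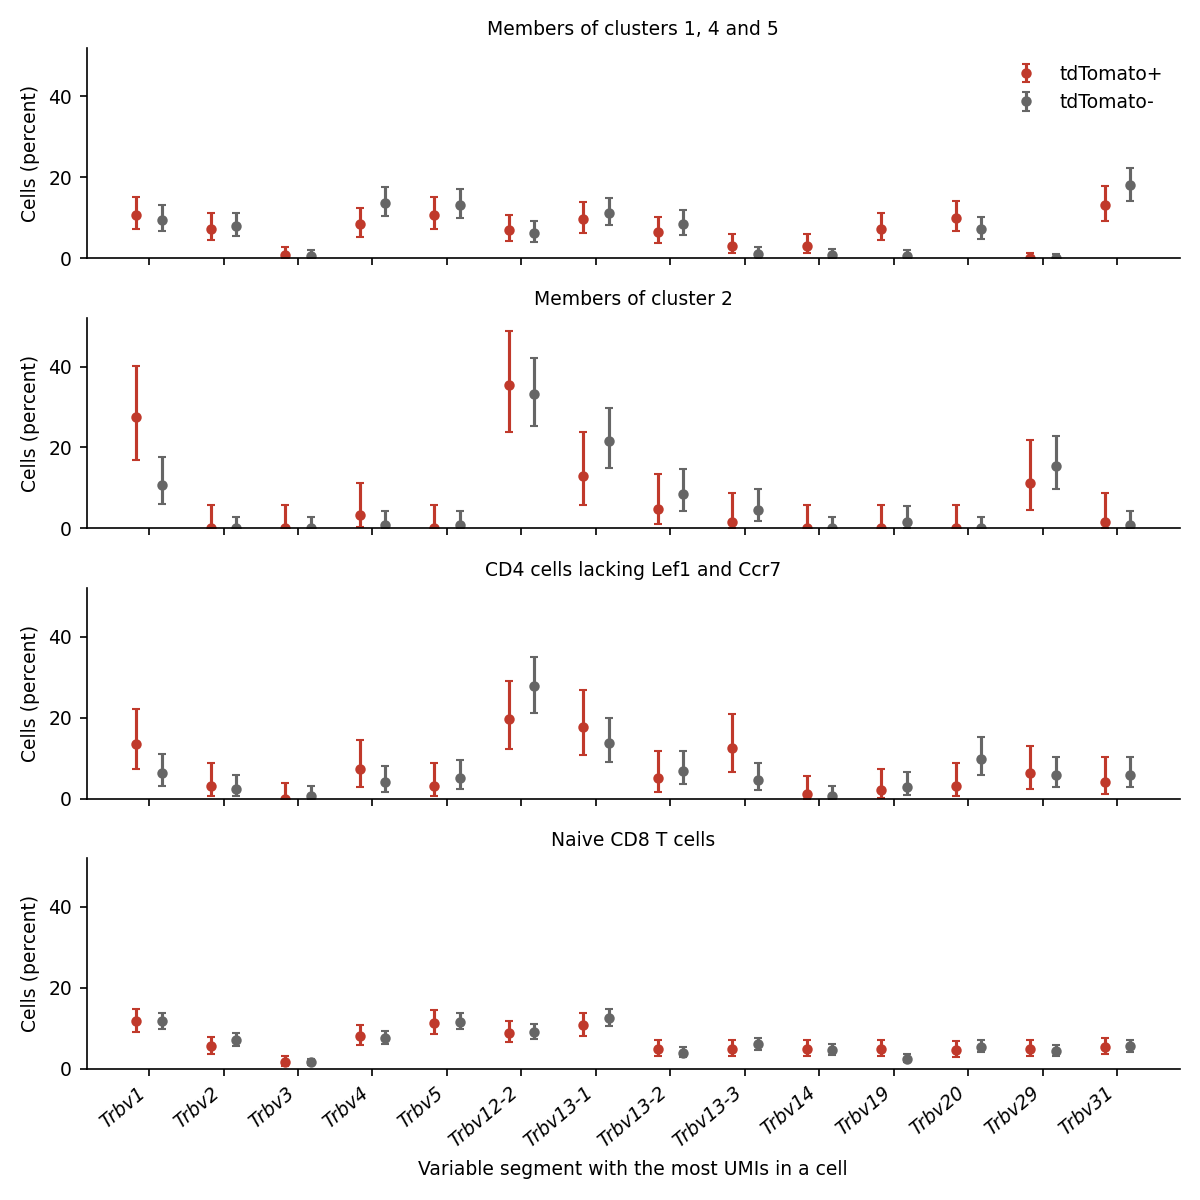
Share of cells (y axis, percent, with 95% binomial interval) assigned to each of 14 *Trbv* segments (x axis) in naive-led cells, cluster 2, CD4 cells lacking *Lef1* and *Ccr7*, and naive CD8 cells, for the tdTomato+ (red) and tdTomato- (grey) library. *Trbv12-2* is highest in cluster 2 in both libraries, *Trbv29* is at 0 in naive-led cells, and *Trbv31* is higher in naive-led than in CD8 cells.

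Naive-led CD4 cells and CD8 cells of the same library used several segments at different shares. *Trbv29* was found in 0 of 261 and 0 of 366 naive-led cells, which allows a share of up to 1.15% and 0.820%, and in 4.97% (3.24 to 7.25) and 4.45% (3.29 to 5.87) of CD8 cells. *Trbv31* was used by 13.0% (9.19 to 17.7) and 18.0% (14.2 to 22.4) of naive-led cells against 5.37% (3.57 to 7.71) and 5.58% (4.28 to 7.14) of CD8 cells. *Trbv14* was used by 3.07% and 0.820% against 4.97% and 4.73%, with intervals that overlapped in the tdTomato+ library (1.33 to 5.95 against 3.24 to 7.25) and not in the other (0.169 to 2.38 against 3.53 to 6.19).

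Within naive-led cells, *Trbv19* was the only *Trbv* segment whose intervals did not overlap between the libraries. It was found in 7.28% (4.44 to 11.1) of 261 tdTomato+ and 0.546% (0.0662 to 1.96) of 366 tdTomato- naive-led cells, and in 4.97% and 2.46% of CD8 cells. *Xist*, expressed in females, had a UMI in 30.4% and 41.8% of naive-led cells and the Y-linked *Ddx3y* in 20.3% and 15.9%, so each library held RNA of both sexes. Cells were not assigned to animals, so a difference between animals and one between sorts cannot be told apart here.

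The separate γδ receptor libraries were read for the gated barcodes, to which the limit of 1 *Trdc* UMI had already been applied. A productive γ or δ contig was found in 1 of 469 tdTomato+ (0.213%, 0.00540 to 1.18) and 10 of 753 tdTomato- gated barcodes (1.33%, 0.639 to 2.43), against 0.754% and 13.9% of kept cells. It was found in 0 of 296 and 0 of 402 naive-led cells, which allows a share of up to 1.01% and 0.746%. In the tdTomato+ library neither value can be told apart from the share over all kept cells at this depth. The barcodes with a contig lay in clusters 2, 3, 6, 7, 8 and 9.

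The CDR3 nucleotide sequences of the contigs that recurred most in other barcodes are printed as examples. Capitals mark the first and last codon, those of the conserved cysteine and phenylalanine. Other contigs in the gate were of *TRGV2*, *TRGV4*, *TRDV2-2* and *TRDV5*, with a CDR3 found in at most 4 barcodes of the same library. A barcode of cluster 9 in the tdTomato- library held a pair of contigs, *TRGV6* and *TRDV4*, each with a CDR3 that was found in 82 tdTomato- and 2 tdTomato+ barcodes. A barcode of cluster 8 held a *TRGV1* contig, whose CDR3 was found in 80 tdTomato- and 6 tdTomato+ barcodes. That barcode held no δ contig and had 3 UMIs in *Trac* and 5 in *Trbc* genes, and whether its cell carried a γδ receptor was not tested.
TRGV6: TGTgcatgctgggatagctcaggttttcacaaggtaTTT
TRDV4: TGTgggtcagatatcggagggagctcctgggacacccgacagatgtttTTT
TRGV1: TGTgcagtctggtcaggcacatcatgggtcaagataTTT

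The barcode with the first pair had 3897 UMIs, with 1 in *Cd4*, 3 in *Lef1* and *Ccr7*, 0 in *Trac*, 6 in *Trbc* genes and 0 in *Trdc*, so the *Trdc* limit of the gate did not remove it. Its *TRDV4* contig rested on 1 UMI and its *TRGV6* contig on 10. *TRGV6* paired with *TRDV4* is the receptor of a fetal-derived γδ subset that makes interleukin 17. The cell lay in the cluster led by *Il22* and *Il17a*, where 31.25% and 25% of cells had a UMI of these genes. The single tdTomato+ barcode held a *TRGV2* contig with 19 UMIs and no δ contig, and lay in the cycling cluster. It had 52891 UMIs in the cell, 9 in *Trac*, 12 in *Trbc* genes and 1 in *Cd4*, and whether it carried a γδ receptor was not tested.
TRGV2: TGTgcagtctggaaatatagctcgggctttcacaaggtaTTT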

How the data were processed

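Libraries were prepared with the 10x Genomics 5′ kit from sorted liver cells. The deposited matrices give UMI counts for 33696 features, which the authors produced with Cell Ranger (10.0.0 per the file headers; the submitters' notes name mm10), and the deposited contig tables give V and J calls and CDR3 sequences.

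From these counts, classes were drawn by the rule given above, summed per library and scaled to CPM. B cells, a reference class, had at least 2 *Cd79a* UMIs, at least 1 in *Cd79b* and none in *Cd3* genes. Log2 ratios used 0.5 prior counts. A gene was past the fold at 50 CPM or more in 1 class and a ratio of at least 2, leaving out genes of the rule and mitochondrial genes. Gated cells were clustered on 1500 variable genes without receptor, ribosomal, mitochondrial and rule genes, with 20 components, 15 neighbours and a resolution of 0.6, a procedure chosen after seeing the data. A cluster was called naive-led where its median log2 enrichment was above 0 for the naive list and below 0 for the memory list. The software was matplotlib 3.10.9, leidenalg 0.10.2, igraph 0.11.9, pandas 2.3.3, scipy 1.17.1 and numpy 2.4.6 under python 3.11.15. The ratio calculation was tested on simulated data.

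Named genes were list members and, for each comparison, up to 10 genes per direction by size of ratio, without V, D and J segments and unnamed genes; others, and the choice of which to print, followed sight of the values. Some list members are not reported here. The members, lists and comparisons were chosen with earlier results of these data known. No p-value was computed, since each group had 1 library. Each result was recomputed under 12 alternatives and 3 added after seeing the data. Median UMIs per kept cell were 9083 (tdTomato+) and 7168 (tdTomato-).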

Additional observations from a re-analysis of the deposited data

Results flagged for a closer look

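Hemoglobin genes lay on opposite sides in the 2 libraries when gated CD4 cells were set against naive CD8 cells. The log2 ratio was 10.15 (tdTomato+) and -6.44 (tdTomato-) for *Hbb-bt*, 8.16 and -4.23 for *Hbb-bs*, and 11.07 and -4.28 for *Hba-a1*. The difference between the libraries was not tested. Of the *Hbb-bs* counts in gated cells, 99.7% lay in 1 tdTomato+ cell and 94.9% in 1 tdTomato- cell, and for *Hbb-bt* these shares were 99.8% and 94.4%. In the tdTomato- CD8 class the summed level of the 5 erythroid genes was 1262 CPM, with up to 7998 UMIs in 1 cell and 99.8% of the counts in 10 cells.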

How the results depend on the processing

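No paired analysis was possible because each group had 1 library, and for the same reason no library could be left out. Of 160 summary values under the alternatives, 90 stayed within their counting interval or within 1.5 times and 70 moved. Numbers of genes were compared as counts, also where the number of genes tested changed. Reversal was scored only for log2 ratios of single genes, so it could not occur among the summary values. Of 1890 values of single genes, 1305 stayed, 559 moved and 26 reversed. The cause of a change was not tested unless the alternative itself leaves out cells or genes.

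In this paragraph, numbers of genes are given as higher and lower, for gated against lacking cells in both libraries, gated CD4 against CD8 cells in both libraries, and tdTomato+ against tdTomato- gated cells. In the main setting they were 48 and 108 of 3575, 50 and 34 of 3273, and 22 and 17 of 3446. At a level minimum of 10 CPM they were 97 and 283 of 8664, 168 and 80 of 8286, and 136 and 84 of 8642. With no minimum beyond 10 summed counts they were 187 and 485 of 11735, 473 and 165 of 12593, and 592 and 547 of 13146. At 200 CPM they were 10 and 19 of 734, 7 and 7 of 659, and 6 and 5 of 696. The number of genes tested changed with the minimum, so the counts alone do not measure stability. Median-of-ratios scaling left 63 of 3575 lower against lacking cells. The mean of per-cell CPM gave 167 of 3567 lower there and 10 of 3384 higher between libraries.

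Thinning to 2000 UMIs, with shallower cells left out, gave shares of 0.982% and 1.69% of the cells left. It gave 75 and 223 of 3467 genes against lacking cells, 31 of 3088 higher against CD8 cells, and 59 and 68 of 3493 between libraries. Contigs were at 0% and *Trav16n* at 2.22% in tdTomato+ cells, and *Trbv12-2* at 9.04% in tdTomato- cells. Thinning reversed *Maf* against CD8 cells (tdTomato+, -0.022) and, between libraries, *Cd5l* (-0.036), *Clec4f* (-1.62) and *Lyz2* (0.34). At least 3 *Lef1* and *Ccr7* UMIs gave 2.31% and 3.51%, with contigs at 0% (tdTomato+). Of 3576 genes, 175 were lower against lacking cells, and of 3409 genes 13 were higher between libraries. At least 5 gave 1.87% and 2.97%, contigs at 0% (tdTomato+) and *Trbv12-2* at 9.49% (tdTomato-). There 75 and 235 of 3587 genes were past the fold against lacking cells. Of 3128 genes, 30 were higher against CD8 cells, and 8 and 40 of 3352 were past the fold between libraries. *Hbb-bs* reversed against lacking cells (tdTomato+, -0.39), and *Hbb-bs* (-3.02) and *Hbb-bt* (-1.01) reversed between libraries. No *Trdc* and *Cd8a* UMI gave 3.75% (tdTomato-) and reversed *Gzma* between libraries (0.17).

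Leaving out cells also shrank the set of kept cells. Without cells holding any endothelial UMI, 59 and 152 gated cells were left and the shares were 7.94% and 1.69%. Contigs were at 0% in both, *Trbv1* was at 21.2% (tdTomato+), and *Trbv12-2* at 11.4% and *Trav14d-3-dv8* at 9.47% (tdTomato-). Between libraries 52 and 84 of 3556 genes were past the fold. *S100a4* reversed against lacking cells (tdTomato+, 0.15), and *Hbb-bs* (-4.97), *Hbb-bt* (-2.19), *Slc40a1* (-0.96) and *Lyz2* (6.51) reversed between libraries. Without barcodes with a contig the tdTomato- share was 4.75%. Without cells over 0.5% of other-lineage RNA the shares were 12.4% and 4.998%, and 0 and 11 of 3398 genes were past the fold between libraries. *Hbb-bs* (-0.62 and -0.44) and *Tcf4* (tdTomato-, 0.26) reversed against lacking cells and *Lyz2* (1.27) between libraries. The limit is set on lists that hold hemoglobin genes. In naive-led clusters alone the shares were 1.69% and 2.21%, contigs 0% in both, and *Trbv12-2* 6.28% (tdTomato-). Against lacking cells 142 and 440 of 3631 genes were past the fold, and 147 of 3197 were lower against CD8 cells. Between libraries 5 and 1 of 3155 genes were past the fold in naive-led cells. There *Hbb-bs* reversed against lacking cells (tdTomato+, -0.12), as did, against CD8 cells, *Zbtb16* (-2.73 and -0.14), *Icos* (-0.15 and -0.21), *Il4* (tdTomato-, -0.76), *Maf* (tdTomato-, -0.39) and *Dapl1* (tdTomato-, 0.11), and *Lyz2* between libraries (0.66). One library per sort limits every comparison between sorts.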
